A study of Mus musculus with 14 samples.

Results

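Erg, Fli1, Etv6, Ets1 and Ets2 are 5 genes of the ETS family of transcription factors, and their loci were examined for ChIP-seq peaks of 13 factors in a mouse progenitor line, Hoxb8-FL. The genes were chosen by family and position, not by a measured value, although earlier results of these data were known. Ets2 lies beside Erg on chromosome 16, Ets1 lies beside Fli1 on chromosome 9, and Etv6 lies on chromosome 6 with neither. Each locus took in the gene and 50 kb on both sides of it, on mm10, and a peak belonged to a locus by its midpoint. The 5 genes, of 21631 protein-coding genes, held 452 of 279955 peaks. Peaks that touched or overlapped were merged into regions, of which 183 of 121980 lay in the 5 loci, or 15.0 per 100 kb.

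Hoxb8-FL cells are a line of blood progenitors kept undifferentiated by estradiol-dependent Hoxb8, grown with estradiol and FLT3, and labelled LMPP-like (like lymphoid-primed multipotent progenitors). All libraries came from this untreated line. Chromatin was fixed for 10 min in formaldehyde at 0.4% or 1% and sonicated for 7 min. Chromatin immunoprecipitation was followed by sequencing (ChIP-seq) with 1 library each for the ETS factors Erg, Fli1 and Spi1, for Runx1, Tal1, Lyl1, Lmo2 and Gata2, and for Gfi1, Gfi1b, Meis1, Cebpa and Cebpb. A rabbit IgG library completes the 14, and no peak list of it was used here. The sources used here do not say whether the line is 1 clone or which factor had which formaldehyde. RNA was not measured, so the cell label was not checked against markers.

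ETS factors share a DNA-binding domain that recognises the letters GGAA. Erg and Fli1 are close relatives that activate genes of blood stem cells and of endothelium, and Fli1 is also known from megakaryocytes. Ets1 is known from lymphocytes, Ets2 as a target of Ras signalling, and Etv6 as a repressor needed by blood stem cells. Spi1, also called PU.1, is a more distant ETS factor of myeloid and B cells. Erg, Fli1, Gata2, Lmo2, Lyl1, Runx1 and Tal1, the heptad, are known to bind together in blood progenitors and at each other's genes.

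The lists give positions with no height or read count, so depth is unknown and a locus without a peak is one where no peak was listed. They ranged from 3217 peaks for Gata2 to 76378 for Spi1, so numbers for different factors were not compared as amounts of binding. With 1 library per factor there is no replicate, and no difference reported here was tested. Intervals for shares of regions are 95% binomial intervals by the exact Clopper-Pearson method and cover counting error alone. Regions of 1 locus share libraries and are not replicates, so an interval apart from a background share is not a test.

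Peaks were dense at Erg, Fli1 and Etv6 and fewer at Ets2 and Ets1, the genes beside Erg and Fli1. The Erg locus (chr16:95359169-95586600 for the gene) held 150 peaks in 61 regions, and the Fli1 locus (chr9:32422204-32543432) held 123 peaks in 41 regions. The Etv6 locus (chr6:134035700-134270158) held 157 peaks in 66 regions. The neighbours were far below these, with 13 peaks in 8 regions at Ets2 (chr16:95702407-95721049) and 11 peaks in 9 regions at Ets1 (chr9:32636241-32757820). These counts include 2 Spi1 regions in the space between Fli1 and Ets1 that belong to both loci.

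Fli1 and Ets1 differed at nearly the same length, since their loci are 221 kb and 222 kb long and held 18.5 and 4.06 regions per 100 kb. Erg held 18.6 regions per 100 kb over 327 kb, Etv6 held 19.7 over 334 kb, and Ets2 held 6.74 over 119 kb. Beside loci of the same length within 10%, Erg had more regions than 98.2% of 336 loci (median 15.0), Fli1 more than 97.6% of 913 (median 15.0) and Etv6 more than 99.7% of 324 (median 16.0). Ets1 lay in the lower part of its range, with more regions than 23.9% of 909 loci and fewer than 72.1% (median 15.0). Ets2 was nearer the middle, above 33.9% of 8198 loci (median 11). Without the Spi1 list the regions numbered 41 at Erg, 26 at Fli1, 34 at Etv6, 4 at Ets2 and 3 at Ets1.

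**Figure D1:**
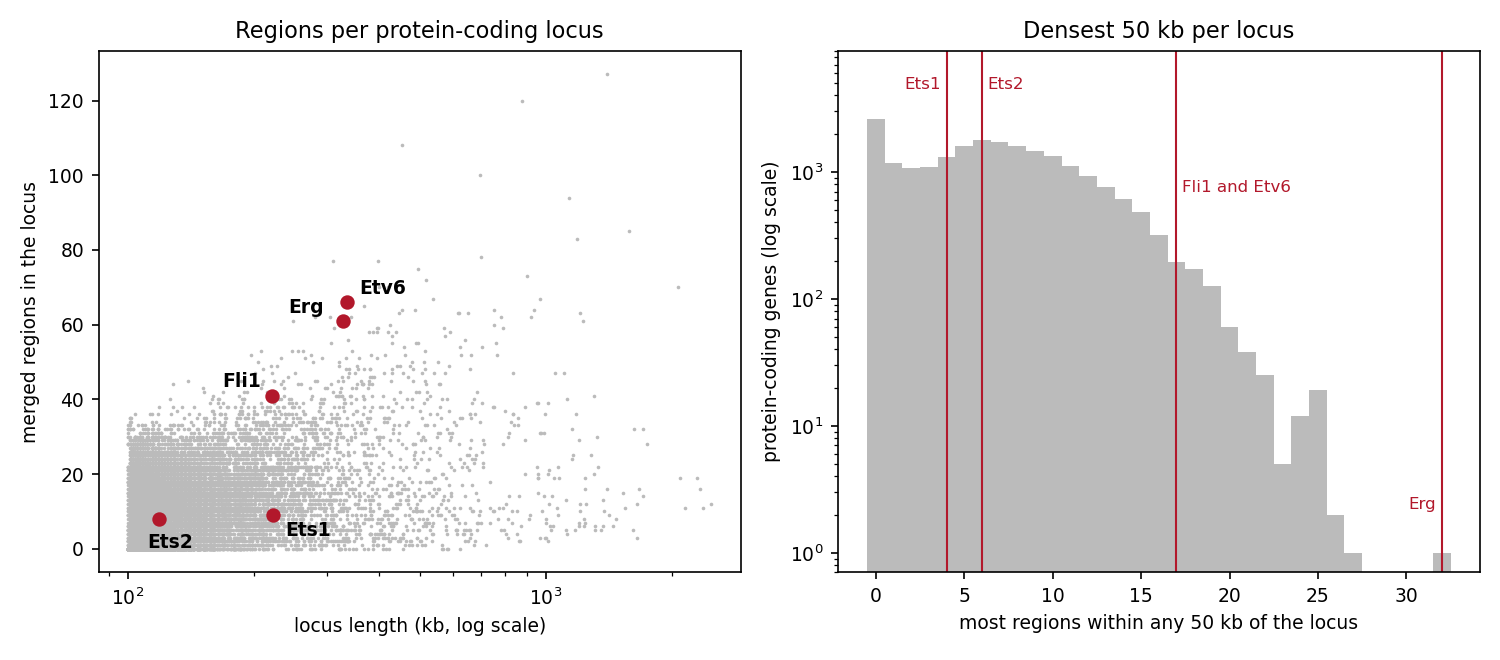
Left, each protein-coding locus by its length (kb, log scale) and its number of merged regions, with the 5 ETS genes in red. Etv6 (66 regions), Erg (61) and Fli1 (41) lie near the upper edge for their length. Ets1 (9) lies in the lower part and Ets2 (8) nearer the middle. Right, the number of protein-coding genes (log scale) by the most regions found within any 50 kb of the locus, where the red lines mark 32 for Erg, 17 for Fli1 and Etv6, 6 for Ets2 and 4 for Ets1.

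Of the 65 possible combinations of a factor and 1 of the 5 genes, 49 had a peak, which is 75.4% beside 57.6% over all protein-coding genes. Erg and Fli1 each had all 13 factors in the locus, as 5.99% of protein-coding genes did. Among loci of the same length within 10%, 13.4% of 336 did for Erg and 11.2% of 913 for Fli1. The shares over all protein-coding genes, here and for single factors below, are not matched for locus length. Etv6 had 12, lacking Gata2. Ets2 had 6 and Ets1 had 5.

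Of the 5 loci, those of Erg, Fli1 and Etv6 had peaks of the ETS factors Erg and Fli1, and the others had none. Lyl1, Runx1, Gfi1 and Gfi1b were split between the loci in the same way. Peaks of Spi1 were present at all 5, and 84.7% of protein-coding loci had one. Erg peaks numbered 5 at its own gene, 7 at Fli1 and 6 at Etv6, with none at Ets2 or Ets1, and 51.7% of protein-coding loci had one. Fli1 peaks numbered 13 at Erg, 16 at its own gene and 13 at Etv6, again with none at either neighbour, where the background was 69.7%. So the genes of Erg and Fli1 each carried peaks of both proteins, and so did Etv6.

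Of the other heptad proteins, Lmo2, a bridging protein that reaches DNA through partners, had peaks at all 5 loci (69.0% of protein-coding loci), with 16 at Erg, 14 each at Fli1 and Etv6, 2 at Ets2 and 1 at Ets1. Tal1, its basic helix-loop-helix partner, was also at all 5 (56.8%), with 10 peaks at Erg, 9 at Fli1, 7 at Etv6 and 1 at each neighbour. Lyl1, the relative of Tal1, was at 3 of the 5 (40.5%), with 7 peaks at Erg, 6 at Fli1 and 3 at Etv6. Runx1 was at the same 3 (56.8%), with 3 peaks at Erg, 4 at Fli1 and 3 at Etv6. Gata2 was at 2 (23.2%), with 3 peaks at Erg and 1 at Fli1.

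The repressors Gfi1 and Gfi1b were at Erg, Fli1 and Etv6. Gfi1 had 6, 1 and 4 peaks there (49.1% of protein-coding loci had one), and Gfi1b had 5, 1 and 3 (46.5%). Meis1, a homeobox partner of Hox proteins, was at 4 of the 5 (50.6%), with 9 peaks at Erg, 8 at Etv6, 4 at Fli1, 1 at Ets2 and none at Ets1. The myeloid C/EBP factors were at all 5. Cebpa (74.3%) had 15 peaks at Erg, 11 at Fli1, 24 at Etv6, 2 at Ets2 and 1 at Ets1, and Cebpb (75.5%) had 22, 12, 24, 2 and 1. For 12 of the 13 factors the lowest 2 counts were those of Ets1 and Ets2; for Gata2, Etv6 was at 0 with them.

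**Figure D2:**
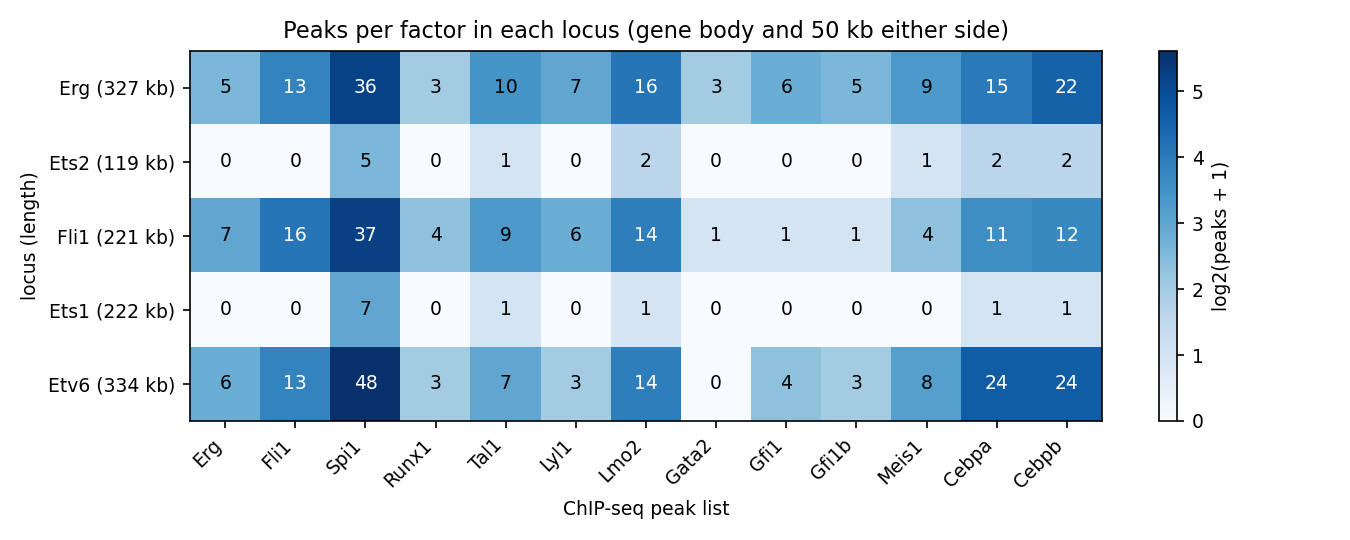
Number of peaks of each of the 13 factors (columns) in the locus of each gene (rows, with locus length in kb), printed in the cells and shaded by log2(peaks + 1). The rows of Ets2 and Ets1 hold 13 and 11 peaks in all, against 150 for Erg, 123 for Fli1 and 157 for Etv6.

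At Ets2 and Ets1, 7 factors had no peak at either: Erg, Fli1, Gata2, Gfi1, Gfi1b, Lyl1 and Runx1. Ets1 also had none of Meis1. Having neither Erg nor Fli1 is common among loci of like length, at 23.6% of the 8198 compared with Ets2 and at 173 of the 909 compared with Ets1. All 7 were missing from 17.3% of the first set, and all 8 from 6.82% of the second.

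The starts of 3 of the 5 genes could be placed with sequence, and the peaks around them differed. The promoter table of RefSeq for GRCm38.p6 lists 3 starts for Erg and 1 each for Ets2 and Etv6. The 250 bases before 4 of these starts are shown because they are the stretches where peaks at the starts can be set beside the letters that ETS factors read. They run 5′ to 3′ on the strand of the gene, and capitals mark GGAA on either strand (TTCC is its reverse complement). The outermost Erg start is at chr16:95586594-95586843 and the innermost at chr16:95459349-95459598, both on the minus strand. The Ets2 window is chr16:95702157-95702406 and the Etv6 window chr6:134035450-134035699, both on the plus strand.
Erg, outermost start: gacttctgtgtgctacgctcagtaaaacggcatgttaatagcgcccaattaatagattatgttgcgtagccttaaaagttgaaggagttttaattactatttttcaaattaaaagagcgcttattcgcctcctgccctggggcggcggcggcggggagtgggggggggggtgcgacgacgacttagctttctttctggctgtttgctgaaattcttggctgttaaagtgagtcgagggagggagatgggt
Erg, innermost start: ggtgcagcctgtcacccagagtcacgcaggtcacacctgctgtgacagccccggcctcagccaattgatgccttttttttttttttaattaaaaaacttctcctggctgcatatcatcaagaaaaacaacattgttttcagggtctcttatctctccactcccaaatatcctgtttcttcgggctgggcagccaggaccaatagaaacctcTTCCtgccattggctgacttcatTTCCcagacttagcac
Ets2: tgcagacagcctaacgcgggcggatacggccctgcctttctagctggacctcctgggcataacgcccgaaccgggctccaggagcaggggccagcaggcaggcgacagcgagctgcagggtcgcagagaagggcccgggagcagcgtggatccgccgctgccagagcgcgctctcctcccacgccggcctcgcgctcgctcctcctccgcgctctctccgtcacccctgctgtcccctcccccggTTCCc
Etv6: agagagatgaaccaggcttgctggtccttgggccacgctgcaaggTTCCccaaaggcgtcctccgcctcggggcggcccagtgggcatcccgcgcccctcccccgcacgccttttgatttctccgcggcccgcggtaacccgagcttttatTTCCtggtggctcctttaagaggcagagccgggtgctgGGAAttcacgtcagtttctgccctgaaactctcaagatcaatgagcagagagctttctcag

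At the outermost Erg start, at base 95586593, no peak lay on the window from 250 bases before to 50 after the start, and the sequence held no GGAA. Over all 21045 promoters, 93.1% held at least 1 GGAA, with a mean of 2.90. The nearest peak there was Gata2 alone, 0.338 kb outside the start. The middle Erg start, at base 95530365, also had no peak on its window, although it held GGAA 4 times, and its nearest region was 3.89 kb away. The innermost start, at base 95459348 and inside the gene, had peaks of Cebpa, Cebpb, Lmo2, Lyl1 and Tal1 on its window. Its sequence held GGAA 2 times, CANNTG (the E-box that Tal1 and Lyl1 read) 2 times, the Meis letters TGACAG 2 times and a GATA match 1 time. Of all promoters, 62.8% held CANNTG, 15.0% TGACAG and 23.6% a GATA match. The E-box form CAGATG, in 12.3% of promoters, had no match here. The C/EBP letters TTGCNNAA, in 9.18% of promoters, also had no match here, although Cebpa and Cebpb peaks lay on the window. They had 1 match at the outermost and 1 at the middle Erg start, where no peak lay on the window. No Erg, Fli1 or Spi1 peak lay on any of the 3 Erg windows.

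The Ets2 start window had an Lmo2 peak and 1 GGAA. That GGAA, at position -5 from the start, lay outside the peak, which ended 0.0850 kb before the start. The Etv6 start window, with GGAA 3 times, had peaks of Erg and Lmo2, the nearest that an Erg peak came to a start among these genes. Of all promoter windows, 41.4% had a peak of any factor. The outermost Erg window and the Ets2 and Etv6 windows held none of the ETS letters GGAAGT, the Spi1 letters GAGGAA, or the Runx letters TGTGGT and TGCGGT, and neither did the other 2 Erg windows. These occur in 20.5% of promoters for GGAAGT, 22.5% for GAGGAA and 17.5% for the Runx pair. A match or its lack describes letters in this window and nothing more.

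Erg had the densest 50 kb of the 5 loci, although Etv6 had more regions in all and Fli1 more peaks per 100 kb (55.6 against 45.8 at Erg). The Erg body of 227 kb held 53 regions, 23.3 per 100 kb, against 4 regions in the 50 kb below it. Within the body, 32 regions with 94 peaks of all 13 factors lay between chr16 95413180 and 95463040, a span of 49.9 kb. The innermost Erg start, at base 95459348, lies inside this stretch. No other protein-coding locus, and no other place on the chromosomes used, had as many regions within 50 kb, and the next gene, Sfi1, had 27. This measure was added after the regions had been seen. It leans on Spi1: without that list Erg had 22 within 50 kb and 4 genes had more, among them Sfi1 with 27. With each list cut to the first 50% of its lines Erg had 18 and 3 genes had more. With each list cut to the length of the shortest Erg had 7, 54 genes had more and 71 had as many.

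All 13 factors met in 1 region of Erg, chr16:95439133-95439613. It lies in the gene body, 80.2 kb above the lower boundary and 147 kb downstream of the outermost start. It is also downstream of the innermost start, at base 95459348, and nearer to that one. The 13 peak midpoints spanned 81 bp. Tal1 was at the median, with Lyl1 at 1 bp, Fli1 at 3 bp and Gfi1 at 4 bp above it, followed by Lmo2 at 15, Gfi1b at 22 and Gata2 at 25 bp. On the lower side were Meis1 at 18 bp, Erg at 32, Cebpa at 39, Runx1 at 40, Spi1 at 45 and Cebpb at 56 bp. It was the single region of the 183 with the whole heptad, beside 143 of the 121980 genome-wide.

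Of the 4 other Erg regions with 7 or more factors, 3 stood in the same stretch. An 8-factor region, chr16:95428157-95428681, joined Cebpa, Cebpb, Erg, Fli1, Gfi1, Lmo2, Lyl1 and Tal1 and had no Spi1. A 7-factor region, chr16:95434451-95434921, joined Cebpa, Cebpb, Fli1, Lmo2, Runx1, Spi1 and Tal1 and had no Erg. Another 7-factor region, chr16:95448966-95449728, joined Erg, Fli1, Lmo2, Lyl1, Meis1, Spi1 and Tal1. The same 7 but with Cebpb in place of Lyl1 formed a region outside that stretch, at chr16:95403351-95403866, 44.4 kb above the lower boundary. All 5 regions with 7 or more factors were thus in the gene body.

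Some Erg regions carried a narrow set of factors. Gfi1 and Gfi1b met with no other factor at chr16:95384121-95384592 and again at chr16:95436051-95436473, and Gfi1 was alone at chr16:95441226-95441625. Below the gene, chr16:95341409-95341920 joined Fli1, Gfi1, Gfi1b and Runx1. The 3 Gata2 peaks lay in the 13-factor region, with Spi1 at chr16:95474482-95475132, and alone beside the outermost start. Spi1 stood alone in 20 of the 61 regions, 32.8% (21.3 to 46.0), beside 36.6% of all merged regions.

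Between Erg and Ets2 the peaks thinned out. The 116 kb between the genes held 12 regions and 18 peaks, or 10.4 regions per 100 kb, and none had more than 4 factors. The 57.9 kb nearer Erg held 7 regions with 7 factors, among them 2 Fli1 peaks and the Gata2 peak at the Erg start. The 57.9 kb nearer Ets2 held 5 regions with 5 factors, Cebpa, Cebpb, Lmo2, Spi1 and Tal1. No Erg peak lay outside the Erg body anywhere in the 2 loci.

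The Ets2 gene of 18.6 kb held 1 region, a Spi1 peak 0.437 kb inside its start. The Lmo2 peak 0.285 kb below the start, by midpoint, was the nearest. Upstream lay Spi1 alone at chr16:95656590-95656989 and at 43.3 kb below the start, a region of Cebpa and Cebpb at chr16:95659509-95659928, and Tal1 alone at 27.6 kb. The most shared region of Ets2, chr16:95728644-95729223, joined Cebpa, Cebpb, Lmo2, Meis1 and Spi1 at 7.88 kb above the gene. So the peaks within 1 kb of the Ets2 start, of Lmo2 and of Spi1, did not overlap each other.

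**Figure D3:**
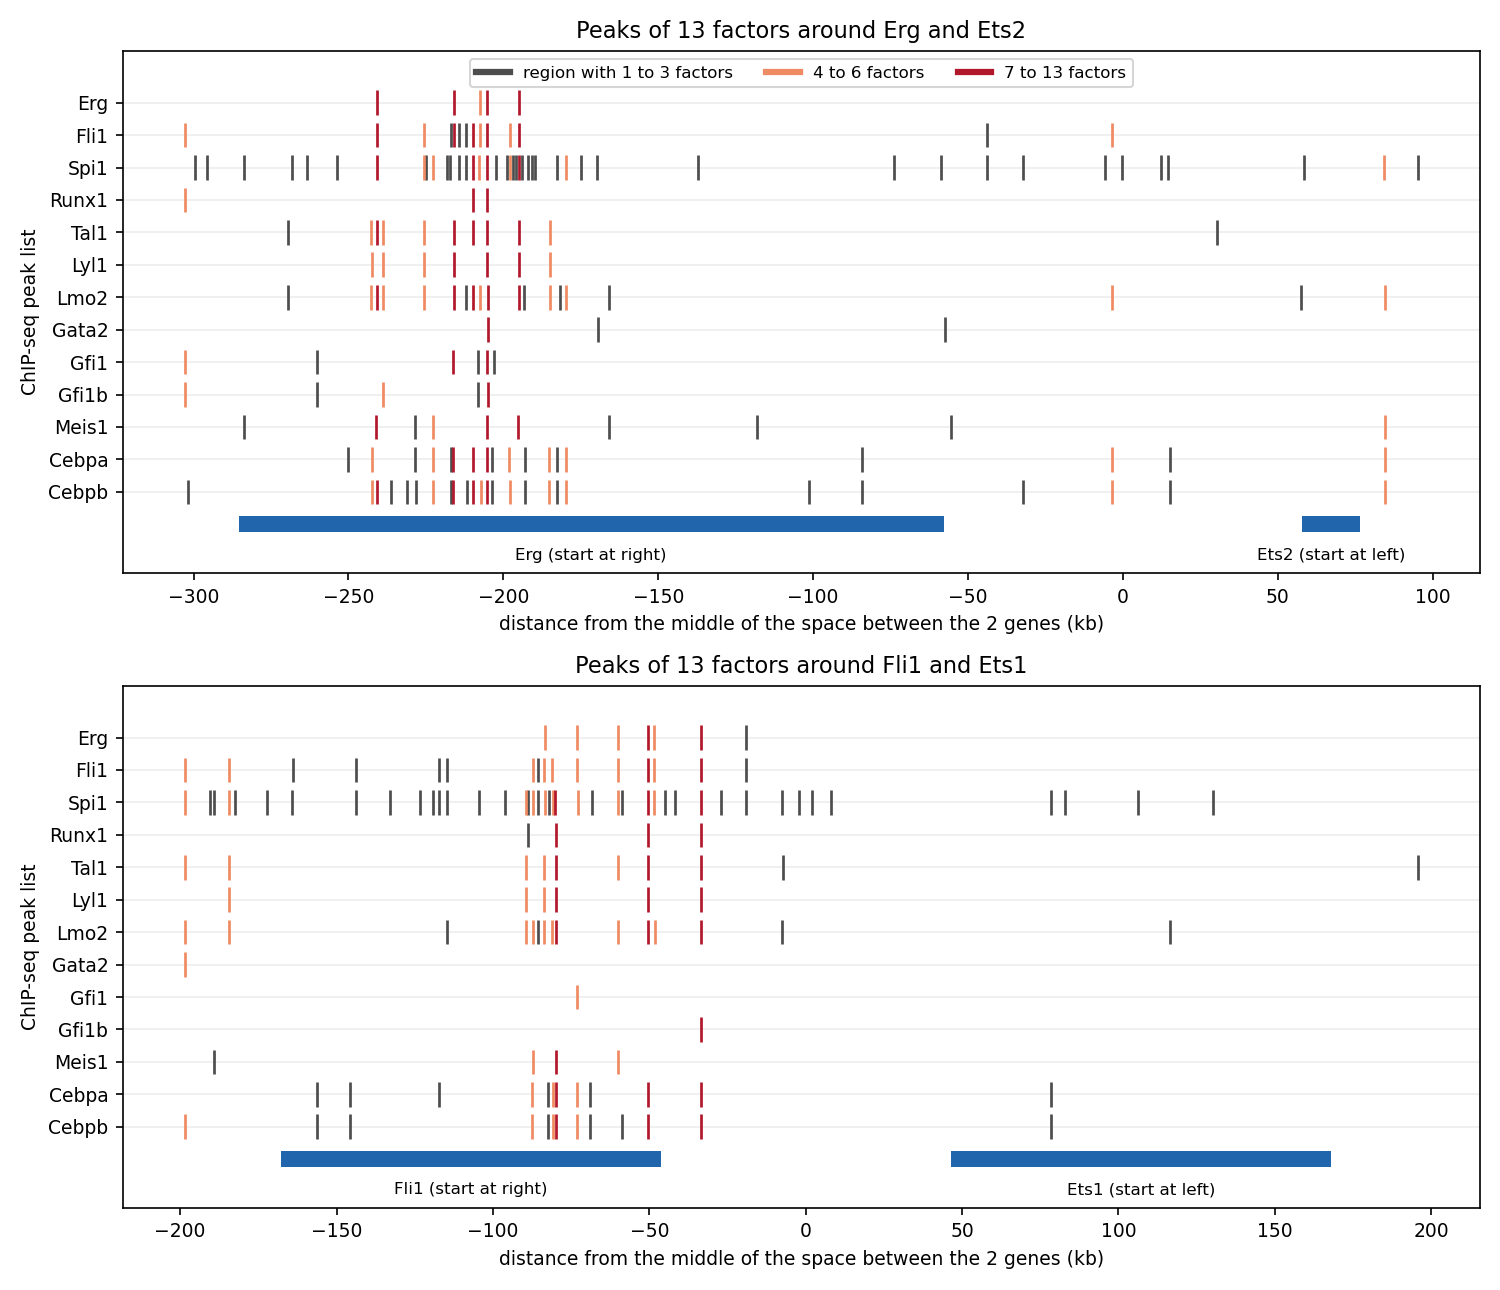
Each tick is 1 peak of the factor named on the left, placed by its distance (kb) from the middle of the space between the neighbours; blue bars are the genes, and tick colour gives the number of factors in the merged region. At top, ticks crowd inside Erg, where all 5 regions with 7 to 13 factors lie, and thin out towards Ets2; at bottom, the 3 such regions lie inside and just beyond Fli1, and no tick falls in the 70.0 kb that span the start of Ets1.

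Fli1 also showed crowding, and it lay towards its start. Its start is the upper boundary and that of Ets1 the lower boundary, so the genes point away from each other. The Fli1 body of 121 kb held 27 regions and 86 peaks of 11 factors, or 22.3 regions per 100 kb. Its densest 50 kb, chr9 32500073 to 32548338, held 17 regions and 69 peaks and reached across the start. More regions than that within 50 kb were found at 2.13% of protein-coding loci.

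The 10-factor region of Fli1, chr9:32556263-32556719, lay 13.1 kb outside the start, in the space towards Ets1. It lacked Gata2, Gfi1 and Meis1, and its 10 midpoints spanned 57 bp. The 9-factor region, chr9:32539189-32539656, lay 4.01 kb inside the start with midpoints spanning 68 bp. It held Cebpa, Cebpb, Erg, Fli1, Lmo2, Lyl1, Runx1, Spi1 and Tal1. Both therefore had 6 of the 7 heptad factors, all but Gata2.

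A further shared region, chr9:32509621-32510207, 33.5 kb inside the start, had 8 factors but neither Erg nor Fli1. It joined Cebpa, Cebpb, Lmo2, Lyl1, Meis1, Runx1, Spi1 and Tal1. The region nearest the start was Spi1 alone at chr9:32544614-32545013, 1.38 kb outside it, and the next, chr9:32541241-32541902, joined Erg, Fli1, Lmo2 and Spi1 at 1.86 kb inside. The 1 Gata2 peak of the locus was at the far end, in a region with Cebpb, Fli1, Lmo2, Spi1 and Tal1 at chr9:32391047-32391537, inside the potassium channel gene Kcnj1. The 1 Gfi1 peak was in a region with Cebpa, Cebpb, Erg, Fli1 and Spi1 at chr9:32516573-32517098.

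The space between Fli1 and Ets1 was divided unevenly. Its 46.4 kb nearer Fli1 held 7 regions and 20 peaks of 10 factors, and the 46.4 kb nearer Ets1 held 2 regions, each a Spi1 peak. Above chr9 32598009 no peak of any factor was listed for 70.0 kb, a stretch that takes in the start of Ets1. Another stretch without a peak, 65 kb long, spanned the other boundary of Ets1. In the Erg and Ets2 stretch the longest gap was 28.2 kb, inside Erg.

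The boundaries of Ets1 thus lay 31.7 kb (start) and 27.6 kb (end) from the nearest region. Of 43262 boundaries of protein-coding genes, 17.1% and 18.4% lay farther, and the median distance was 3.34 kb. For the boundary on the start side of the other genes the distance was 0.331 kb at Erg, 1.18 kb at Fli1, 0.0850 kb at Ets2 and 0 at Etv6. At Erg this boundary stands for the outermost start. The innermost Erg start had a region on it, and the middle start was 3.89 kb from the nearest.

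Within the 122 kb of the Ets1 gene there were 5 regions with 7 peaks. The region with the most factors, chr9:32667985-32668409, had Cebpa, Cebpb and Spi1, 32.0 kb inside the start, with midpoints spanning 25 bp. The others were 3 Spi1 peaks, at 36.4, 59.7 and 84.0 kb inside, and 1 Lmo2 peak at 70.0 kb. Outside the gene, 3 Spi1 peaks lay below it, 2 of them, chr9:32587366-32587765 and chr9:32591708-32592107, also within 50 kb of Fli1. A Tal1 peak lay 27.8 kb above the gene. Hence 8 of the 9 Ets1 regions had 1 factor, 88.9% (51.8 to 99.7), beside 56.3% of all merged regions. Of these 8, 6 were Spi1, which is 66.7% (29.9 to 92.5) of the 9, beside 36.6% of all. Both shares of all regions lie inside the intervals.

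Over both pairs of neighbours, 102 of 117 regions lay in the locus of Erg or Fli1, or 87.2%. That share is not set over length: the loci are 327 kb at Erg and 221 kb at Fli1, against 119 kb at Ets2 and 222 kb at Ets1. Regions in the loci of both Fli1 and Ets1 were counted at Fli1. No region with 7 or more factors lay in the locus of Ets1 or Ets2, which for 8 or 9 regions allows a share of up to 36.9% or 33.6%. At loci of all protein-coding genes such a region was present in 40.6%.

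Etv6 resembled Erg in its number of regions, although Gata2 had no peak there. The gene body of 234 kb held 53 regions and 122 peaks, or 22.6 regions per 100 kb. The 50 kb below its start held 9 regions and 31 peaks of 12 factors, and the 50 kb above its end held 4, each Spi1 alone. Regions of Etv6 with 10 or more factors numbered 3, against 1 each at Erg and Fli1 and none at Ets1 or Ets2. At least 1 such region was present at 17.4% of protein-coding loci, and 92.6% of the 324 loci of like length had fewer than 3.

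Each of these 3 regions had 11 factors. One, chr6:134020704-134021274, lay 14.7 kb below the Etv6 start, inside the predicted gene Gm46977, and lacked Gata2 and Runx1. Its midpoints spanned 171 bp. The others lay 151 kb and 154 kb into the gene, close to each other. At chr6:134186204-134186946, which lacked Gata2 and Gfi1b, Meis1 was 323 bp from the median midpoint while the other 10 were within 58 bp. At chr6:134189287-134190198, which lacked Gata2 and Meis1, Gfi1 and Gfi1b stood 434 and 484 bp from the median midpoint, and the other 9 within 38 bp. In these, the peaks that stood apart belonged to the merged region through overlapping 400 bp intervals and did not share its centre.

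A 9-factor region of Etv6, chr6:134064935-134065516, lay 29.5 kb inside the start. It joined Gfi1 and Gfi1b to Cebpa, Cebpb, Erg, Fli1, Lmo2, Meis1 and Spi1, without Tal1, Lyl1 or Runx1. The region at the start itself, chr6:134035001-134036235, had Cebpb, Erg, Fli1, Lmo2, Runx1 and Spi1, with midpoints spread over 835 bp. It was the single region across a gene start among the 5 that had both Erg and Fli1.

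**Figure D4:**
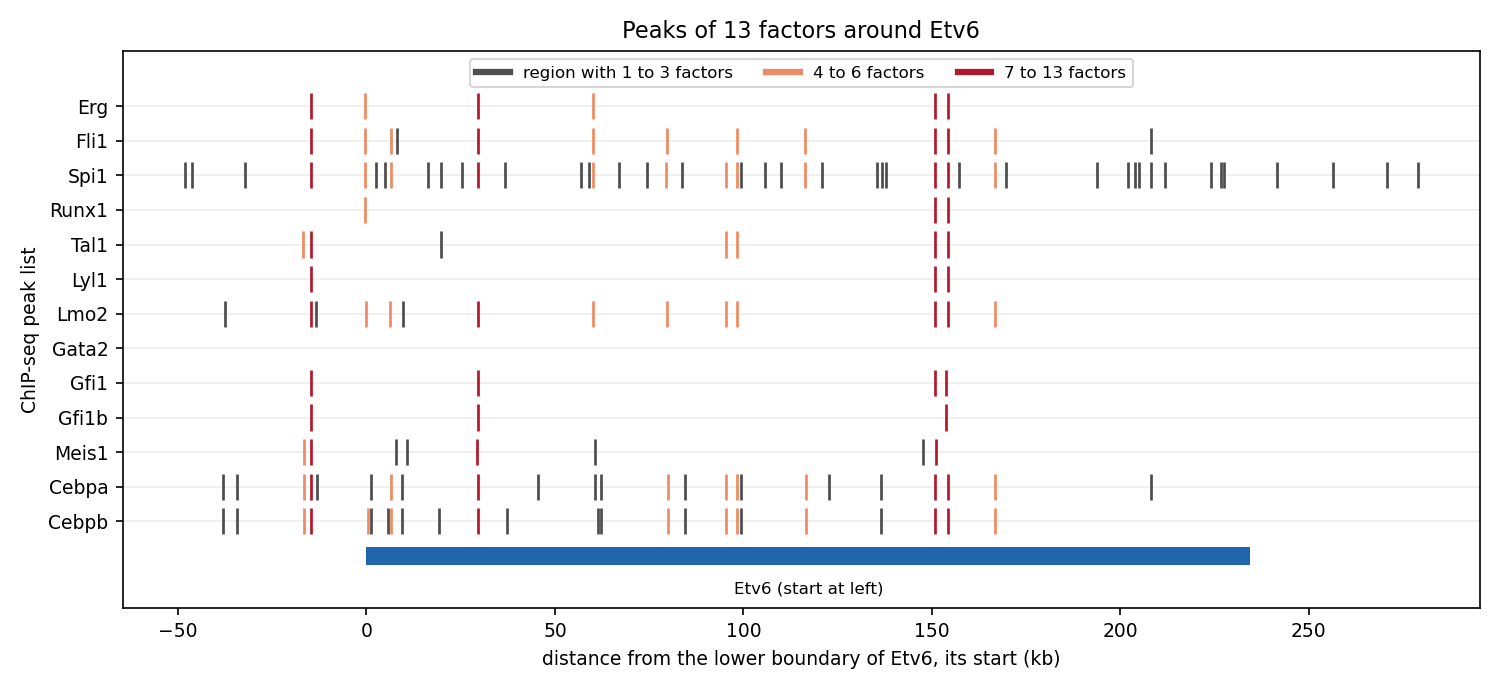
Each tick is 1 peak of the factor named on the left, placed by its distance (kb) from the start of Etv6; the blue bar is the gene, and tick colour gives the number of factors in the merged region. The 4 regions with 7 to 13 factors lie at 14.7 kb below the start and at 29.5, 151 and 154 kb inside the gene, the Gata2 row is empty, and the flank above the gene holds Spi1 ticks alone.

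The number of factors per region, pooled over the loci, lay near the background, with Fli1 apart. Over the 5 loci, 12 of 183 regions had 7 or more factors, 6.56% (3.43 to 11.2), and the share over all merged regions was 7.00%. Regions with 1 factor made up 54.1% (46.6 to 61.5), beside 56.3% of all. By locus that share was 50.8% (37.7 to 63.9) at Erg and 60.6% (47.8 to 72.4) at Etv6. It was 75.0% of the 8 regions at Ets2 and 88.9% of the 9 at Ets1. At Fli1 it was 39.0% (24.2 to 55.5), an interval below the share of all regions, so that 61% of its regions had 2 or more factors, beside 43.7% of all. Spi1 alone made up 41.0% (33.8 to 48.5), beside 36.6% of all.

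Regions with both Erg and Fli1 numbered 18 of 183, 9.84% (5.93 to 15.1), beside 7.07% of all merged regions, which lies inside the interval. At Fli1 they were 7 of 41, 17.1% (7.15 to 32.1), at Erg 5 of 61, 8.20% (2.72 to 18.1), and at Etv6 6 of 66, 9.09% (3.41 to 18.7). A region with Erg or Fli1 or both made up 39.0% (24.2 to 55.5) at Fli1, 21.3% (11.9 to 33.7) at Erg and 19.7% (10.9 to 31.3) at Etv6, beside 18.4% of all. Spi1 was in 37 of the 41 regions of Fli1, 90.2% (76.9 to 97.3), in 59.0% (45.7 to 71.4) at Erg and in 72.7% (60.4 to 83.0) at Etv6, beside 62.6% of all. At Fli1 both of these intervals lie above the share of all regions. That for Erg with Fli1 does so narrowly, from 7.15% beside 7.07%, on 7 regions. These are a few of many classes counted, and none was tested.

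**Figure D5:**
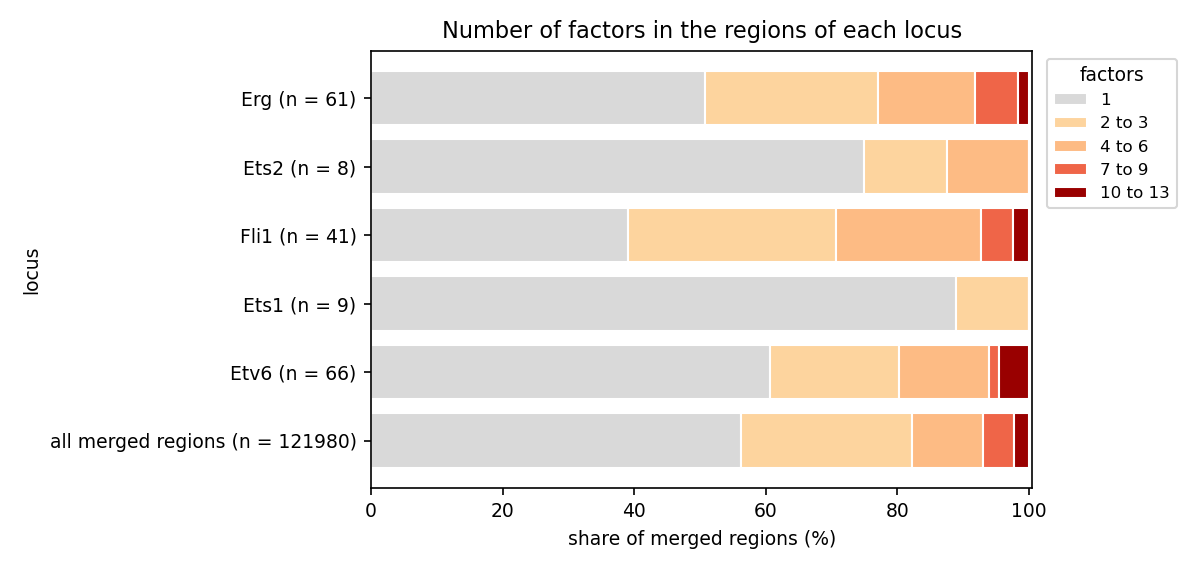
Stacked bars give the share (%) of merged regions by number of factors, for each locus and for all merged regions, with n the number of regions. The bars of Erg, Fli1 and Etv6 have 7 or more factors in 8.20, 7.32 and 6.06% of regions, near the 7.00% of all merged regions, and the bars of Ets2 and Ets1 hold none.

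The partners of the ETS factors at these genes were those of their whole lists for some factors and not for others. All 18 Erg peaks were in a region with Fli1 (95.8% of the whole Erg list), 17 in one with Spi1 (94.4%, whole list 81.3%) and 16 in one with Lmo2 (88.9%, whole list 83.0%). Runx1 was in the region of 6 of the 18, 33.3%, where the whole list had 57.8%, and Meis1 in that of 7, 38.9%, where the whole list had 24.7%. Of the 42 Fli1 peaks, 18 were with Erg (42.9%, whole list 39.2%), 37 with Spi1 (88.1%, whole list 78.5%) and 1 was alone. Runx1 was with 8 of the 42, where its share over the whole Fli1 list was 37.0%. Of the 131 Spi1 peaks, 75 were alone, 57.3% beside 58.5% of the whole list, and 6.87% were with Runx1, beside 10.8%. Runx1 thus met each of the 3 ETS factors in a smaller share of regions here than over the whole lists, a difference that was not tested and rests on 10 Runx1 peaks.

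Gfi1 or Gfi1b was in 7 regions of Erg, 4 of Etv6 and 2 of Fli1, or 7.10% of the 183 (3.84 to 11.8), beside 9.98% of all. Regions with 6 of the heptad factors, without regard to Gata2, numbered 5, with 1 at Erg, 2 at Fli1 and 2 at Etv6, which is 2.73% (0.893 to 6.26) beside 2.51% of all. Cebpa and Cebpb met in 46 regions, 25.1% with an interval that reached up to 32.1%, beside 23.7%. In each of these 3 classes the share of all regions lay inside the interval.

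The mixes of factors at Erg, Fli1 and Etv6, each set over the mix of all peaks, were weakly correlated. The share of each factor among the peaks of a locus was set over its share of all peaks, on a log2 scale with 0.01 added to both, and loci were compared by Pearson correlation over the 13 factors. The correlation was 0.08 between Erg and Fli1, -0.10 between Erg and Etv6 and 0.21 between Fli1 and Etv6. The 13 points share libraries and the list lengths, and no p was computed. Some shares rest on 1 peak, such as that of Gfi1 at Fli1. Low correlations can also arise where each mix lies near that of all peaks, so they do not show that the mixes differ. Among 11487 other loci with 20 or more peaks, the mix at Erg was most like that at Nudt5 (0.91), Ccser1 (0.90) and Tarm1 (0.86). Fli1 was most like Smad6, Elk4 and Bdkrb2 (0.93 each), of which Elk4 is an ETS gene. Etv6 was most like Itga8 (0.94), Tbc1d23 (0.90) and Nf1 (0.87). These are the highest of all the loci compared, over 13 points, and some had few peaks, such as 31 at Nudt5. Ets1 and Ets2 had too few peaks for this comparison.

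The remaining 21 genes of the ETS family had a median of 13 regions, 33.0 peaks and 11 factors in the locus, and all protein-coding loci had 10.0, 21.0 and 9. Per 100 kb the medians were 11.2 regions for these genes and 7.64 for all protein-coding genes. Erf (20.3 per 100 kb), a repressor, and Etv3 (19.2) were denser in regions than Erg and Fli1, and Erf was denser than Etv6. In peaks per 100 kb, Spi1 (62.2) was above Fli1 (55.6), and 4 of the 21 were above Erg (45.8) and Etv6 (46.9). By regions per 100 kb, 17 of the 21 were above Ets2 and 19 above Ets1. A peak was present in 204 of 273 combinations of factor and gene, 74.7%, beside 57.6% over all protein-coding genes. Spi1 had a peak at all 21, Fli1 at 18 (85.7%) and Erg at 14 (66.7%). Over all protein-coding genes these shares were 84.7% for Spi1, 69.7% for Fli1 and 51.7% for Erg. A region with 7 or more factors was present at 13 (61.9%), beside 40.6% of protein-coding genes. One with 10 or more was present at 6 (28.6%), beside 17.4%. Elf1 had all 13 factors, in 26 regions, as 5.99% of protein-coding genes had all 13. Then 6 genes tied at 12 factors, of which Elk3, with 88 peaks in 29 regions, and Spi1, with 83 in 23, had the most peaks. The fewest factors were at Ehf, with 2, and Fev, with 4, both below Ets1 and Ets2.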

How the data were processed

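The deposited peak lists give positions in base pairs on mm10, in 3 columns and with no score or count, and the labels' protocols describe ChIP-seq with 1 library per factor. The submitters' processing notes name the tools Bowtie2, bedtools and MACS2 and the builds GRCm38 and mm10. Tool versions, the threshold for calling and any role of the IgG library were not given in the sources used here. Every peak is 400 bp wide, so 2 peaks with midpoints farther apart than that merge through a peak between them. On 19 autosomes and X, 3 mitochondrial lines were left out. Coordinates count from 1.

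Genes came from the RefSeq table of GRCm38.p6, which gives boundaries with neither strand nor exons, so exonic and intronic positions were not told apart. Starts and sequences of Erg, Ets2 and Etv6 came from the RefSeq promoter table of the same build. The start side of Fli1 and Ets1 is textbook knowledge. No genome sequence was used, so motifs were searched in promoters alone, on both strands. The GATA letters were AGATAA or TGATAA, with AGATAG or TGATAG beside them, each counted as a match. The C/EBP letters were TTGCNNAA and the E-box form was CAGATG. The motifs not named with the results were AATCNNNGC and the letters AAATCA, both for Gfi1. The letters GGAA also lie within GGAAGT and within GAGGAA, and the E-box form within CANNTG.

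Regions are peaks merged at 1 bp of overlap. Per gene, the text names the 3 regions shared by most factors (ties by more peaks, then smaller span), the one nearest the start and any with the heptad. It also names the 3 most similar loci and the 3 ETS genes with the most factors. Other regions were named after their values were seen. Members and lists were chosen with earlier results of these data known. The densest 50 kb, the ranks by locus length and the peak-free gaps were added after values were seen. Alternatives changed the merging, the locus, the lines or lists used and the thresholds. Scripts (Python 3.11.15, numpy 2.4.6, scipy 1.17.1, matplotlib 3.10.9) were tested on simulated data.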

Additional observations from a re-analysis of the deposited data

How the results depend on the processing

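The 49 combinations of factor and gene ranged from 39, with each list shortened to the 3217 lines of the shortest, to 59 with 100 kb either side, where the loci of neighbours reach into each other. The regions of the 5 loci, 15.0 per 100 kb, became 8.96 with each list cut to its first 50% of lines, 8.88 without Spi1 and 2.96 with the shortened lists. The 12 regions with 7 or more factors became 2 with the shortened lists, and 19 had 6 or more factors and 5 had 10 or more. The 18 regions with both Erg and Fli1 became 6 with the first 50% of lines and 4 with the shortened lists. The share of neighbouring regions at Erg or Fli1, 87.2%, was 94.0% with the first 50% of lines and 95.5% with the shortened lists. Fewer lines leave fewer peaks to merge; the order of lines is not explained in the sources used here, so these are not stricter thresholds. The other 40 values for these results moved less than 1.5 times or stayed inside their interval. At Ets1, regions fell from 9 to 2 with the first 50% of lines, to 3 without Spi1 and to 0 with the shortened lists, and at Ets2 from 8 to 3, 4 and 1. With 10 kb either side Ets1 had 5 and Ets2 had 3, and with 100 kb they had 17 and 18. Without Spi1, Etv6 fell from 66 to 34 and Fli1 from 41 to 26. No paired analysis was possible because each factor has 1 library and no test was made. A second culture was not measured, and depth is unknown.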
